A study of Mus musculus with 9 samples.

Results

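Cadherins, connexins and the proteins that anchor them were followed through 10 genes in oocytes of 3 genotypes. The genes were picked by name for their role in cell adhesion and junctions. They were Cdh1, Cdh2 and Cdh3 (cadherins), Ctnnb1 and Ctnna1 (catenins), Gja1, Gja4 and Gjc1 (connexins), Ptk2 (focal adhesion kinase) and Rdx (radixin), and all 10 had a row among the 28052 genes counted. Of these, 7 passed the filter on low counts and were among the 10993 genes tested. Gja1, Gja4 and Gjc1 did not pass it and are described by their counts.

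The RNA came from growing oocytes of XX, XO, and XY females, with 3 pools per genotype and 30 oocytes per pool, 10 of 50–55 μm and 20 of 55–60 μm in diameter. All pools were labelled as C57BL/6, 18 days post partum. XY females and their XX littermates were sired by B6.YTIR males, which carry the Y chromosome of another strain on a B6 background. XO females were sired by males with the X-linked Patchy Fur (Paf) mutation, bred from C3H/HeSnJ onto B6, so that the XO genotype and its cross cannot be told apart. For all genotypes, ovaries were taken apart with collagenase and trypsin before oocytes were picked by size. The labels and methods describe biological triplicates without naming the animals, and p-values measure the spread between these pools. Libraries were made by Smart-seq3, which tags the 5′ end of each RNA molecule with a unique molecular identifier (UMI). Since each transcript is counted once at its 5′ end, levels of different genes were compared without dividing by gene length. Levels are given as normalized CPM, the UMI count scaled to the gene UMIs of its pool and to a factor from the ERCC spike-in RNAs that were added to every pool.

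Cadherins are membrane proteins that bind cadherins of the same kind on a neighbouring cell. Inside the cell, β-catenin (Ctnnb1) holds the cadherin tail and α-catenin (Ctnna1) links the complex to actin, while β-catenin also acts in the nucleus as the effector of Wnt signals. Connexins form channels between cells, and in the growing follicle the channels of the oocyte carry connexin 37 (Gja4), whereas granulosa cells are known for connexin 43 (Gja1). Radixin ties the membrane of microvilli to actin, and focal adhesion kinase signals from integrins, which hold cells to the matrix.

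Promoters from RefSeq (GRCm38.p6) matched 4 of the 10 genes, Rdx, Ctnnb1, Gja4 and Gja1. These 4 hold the most and the least abundant transcript of the set, the gene with the steadiest difference between genotypes and the connexin of the set that ranged most between pools. The 250 bases upstream of a start site are shown 5′ to 3′ in the direction of the gene. Capitals mark an E-box (CANNTG), the letters bound by bHLH factors such as the oocyte factor Figla, and a GC box (GGGCGG, or CCGCCC where it reads on the opposite strand), the letters bound by Sp1.
Rdx (chr9:52046900-52047149, plus strand): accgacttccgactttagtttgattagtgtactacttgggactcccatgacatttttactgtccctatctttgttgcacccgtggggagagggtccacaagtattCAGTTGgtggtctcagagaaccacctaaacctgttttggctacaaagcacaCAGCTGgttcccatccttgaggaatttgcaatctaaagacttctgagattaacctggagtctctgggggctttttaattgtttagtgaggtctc
Ctnnb1 (chr9:120933150-120933399, plus strand): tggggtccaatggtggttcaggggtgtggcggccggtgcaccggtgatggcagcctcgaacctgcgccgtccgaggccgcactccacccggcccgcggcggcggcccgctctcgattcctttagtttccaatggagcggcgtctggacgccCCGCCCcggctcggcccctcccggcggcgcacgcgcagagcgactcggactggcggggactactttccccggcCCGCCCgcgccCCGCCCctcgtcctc
Gja4 (chr4:127314040-127314289, minus strand): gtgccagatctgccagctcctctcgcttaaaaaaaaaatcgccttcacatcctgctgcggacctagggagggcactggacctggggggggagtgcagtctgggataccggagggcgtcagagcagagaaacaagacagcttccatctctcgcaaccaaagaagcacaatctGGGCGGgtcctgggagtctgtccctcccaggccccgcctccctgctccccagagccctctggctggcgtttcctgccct
Gja1 (chr10:56377050-56377299, plus strand): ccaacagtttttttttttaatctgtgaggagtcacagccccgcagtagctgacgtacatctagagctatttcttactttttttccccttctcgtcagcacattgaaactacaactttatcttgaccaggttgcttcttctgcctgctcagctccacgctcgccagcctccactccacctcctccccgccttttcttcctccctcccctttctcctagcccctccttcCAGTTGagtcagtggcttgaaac

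The Rdx window, which ends just before the annotated gene, held 2 E-boxes, no GC box and 3 CpG dinucleotides, against a median of 6 CpGs over the 32851 promoters of the same length. A second Rdx window clear of exons, chr9:52047691-52047940, held neither motif and 10 CpGs. The Ctnnb1 window starts inside the longest annotated span and clear of its exons. It held 3 GC boxes and 35 CpGs, more than 97.0% of promoters. Gja4 had 1 GC box and 9 CpGs, and Gja1 had 1 E-box and 6 CpGs. On either strand, 66.2% of all promoters held an E-box and 32.7% a GC box in such a window. A match describes letters and is not evidence that a factor binds there.

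The deposited gene models (GRCm38) place all 10 genes on autosomes. Cdh3 (chr8:106510891-106557297) and Cdh1 (chr8:106603351-106670246) are neighbours on the plus strand. Cdh2 lies at chr18:16588877-16809246 on the minus strand and Ctnna1 at chr18:35118888-35254773 on the plus strand. Ctnnb1 (chr9:120929216-120960507) and Rdx (chr9:52047173-52088735) share a chromosome and the plus strand. Gja1 lies at chr10:56377330-56402513 on the plus strand. Gja4 (chr4:127311421-127314039), Gjc1 (chr11:102799579-102819700) and Ptk2 (chr15:73205333-73423280) are on the minus strand. Ctnnb1 and Ptk2 overlap microRNA genes on their own strand (Mir7090 and Mir151). The spans of Cdh2, Ctnna1, Ctnnb1 and Ptk2 overlap genes on the other strand, such as Lrrtm2 within Ctnna1, and the reads were aligned in stranded mode.

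Each pool had 2130145 to 3157338 gene UMIs, and 18334 to 21044 genes were detected. All 15 oocyte markers had UMIs in every pool, with summed levels of 26702–28138 normalized CPM in the XX, 19463–53481 in the XO and 20396–25622 in the XY pools. XO1 held the lowest and XO3 the highest of these sums. XY1 lay near XO1, and XO3 lay further from the XX and XY pools than XO1 did. Results that rest on XO1 are also given without it, and ranges over single left-out pools include XO3. XO1 was the lowest XO pool of Cdh1, Cdh2, Cdh3, Gja4 and Ptk2, so that leaving it out raises the XO mean of these genes. Granulosa cell markers, of which 9 of 13 had a row, summed to 48.0–66.7 in the XX, 55.9–67.7 in the XO and 57.0–92.1 in the XY pools. Most of this sum was Nr5a2 (21.9–51.6), Cyp19a1 (3.62–44.4) and Kitl (5.69–19.2). Among their defining genes, Inha had 1 UMI over all pools and Fshr reached at most 4.52 normalized CPM, whereas Foxl2 and Amh had no row among the genes counted. Theca and stroma markers (5 of 10 with a row) summed to at most 7.48, with 1 UMI of Col1a1. Endothelial and blood markers (4 of 8 with a row) summed to 19.2–147, from Pecam1 (14.5–132) and Tek (4.14–14.1) for the most part, and Ptprc had no row. In pools of whole oocytes, fewer cells of a kind and less RNA per cell cannot be told apart.

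The spike-in factors set the zero of every difference. On that scale the median log2 difference over all genes tested was -0.46 for XX against XO, -0.19 for XX against XY and -0.30 for XY against XO oocytes. Most genes thus lay lower in XX and XY than in XO oocytes on that scale only. When the factors were taken from the genes instead, by the trimmed mean of M values (TMM), these medians were -0.03, -0.04 and -0.02. With pools scaled to the total of spike-in UMIs they were 0.42, 0.49 and -0.11, so that the direction for XX oocytes turned with the scaling. A member's difference is therefore also given relative to the median gene, where it was called.

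The 10 genes spanned almost the whole range of transcript levels. Averaged over the 9 pools, Rdx stood at 3571 normalized CPM and ranked 39 of 28052 genes. Ctnnb1 (48.6) and Cdh1 (43.5) came next at ranks 2731 and 2990. Their order was not fixed, since Ctnnb1 was above Cdh1 in 4 of 9 pools, among them all 3 XO pools. Ptk2 (11.1), Ctnna1 (10.3), Cdh2 (9.26) and Cdh3 (8.55 normalized CPM) lay close together, and their pools overlapped. Gja4 (4.19), Gjc1 (2.11) and Gja1 (0.0912) were the lowest, and Gja1 ranked 23477.

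**Figure D1:**
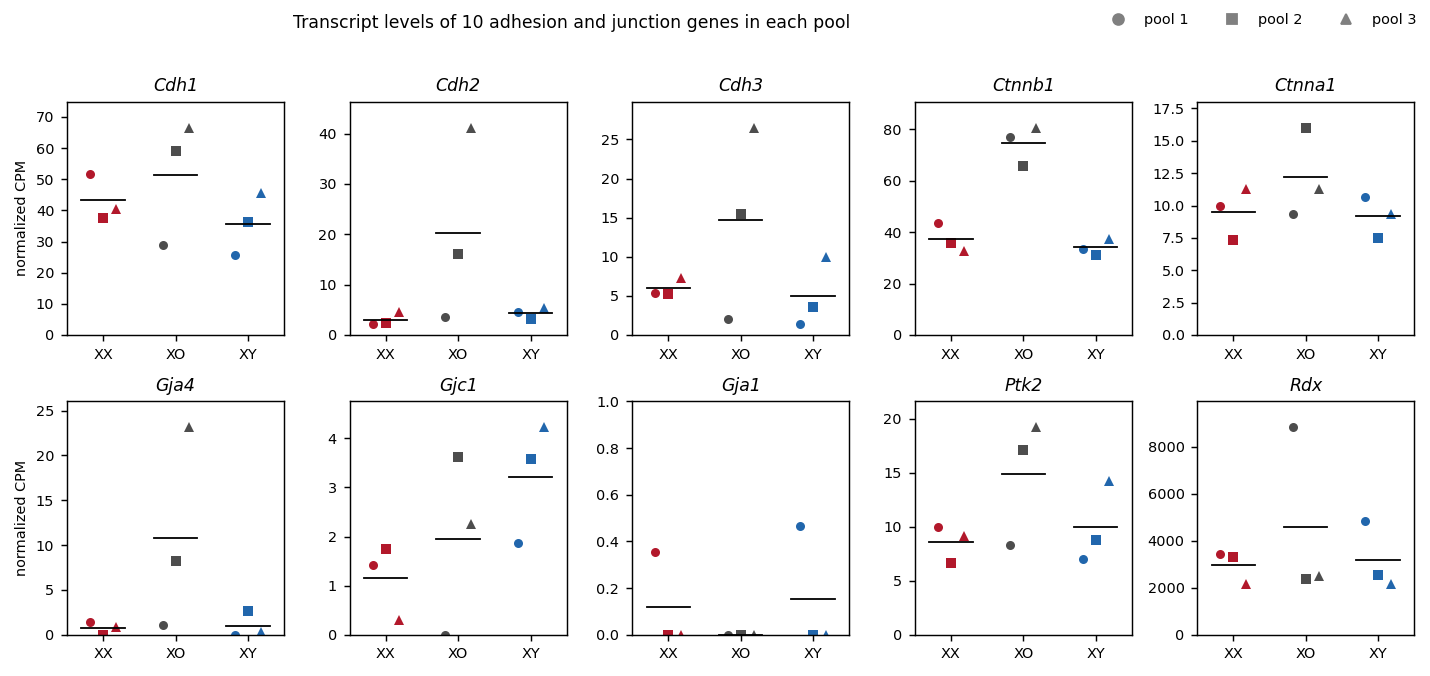
Transcript levels of the 10 genes in every pool, in normalized CPM on linear axes that start at 0 and differ between panels, with circles, squares and triangles for pools 1, 2 and 3 of each genotype and a bar at the mean of 3. Ctnnb1 in XO oocytes (65.7 to 80.7) lay above all XX and XY pools, XO1 was low for Cdh2, Cdh3 and Gja4, and XO1 held the highest Rdx level (8831).

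Cdh1 encodes E-cadherin, the cadherin of epithelia, and its mean level was the highest of the 3 cadherins followed. Cdh19, a cadherin outside the set, lay above it in XO1, XY1 and XX2 (67.8, 28.4 and 41.0 normalized CPM). Cdh1 was at 51.6, 37.5 and 40.5 normalized CPM in the XX pools, 29.0, 58.9 and 66.6 in the XO pools and 25.6, 36.1 and 45.6 in the XY pools. The genotypes overlapped, and pool 1 was the lowest of its genotype in XO and XY oocytes but the highest in XX oocytes. By edgeR, the log2 difference of Cdh1 was -0.25 for XX against XO (95% interval -1.07 to 0.56), 0.27 for XX against XY (-0.55 to 1.08) and -0.52 for XY against XO oocytes (-1.34 to 0.30). None of these passed the threshold used for a call here, an unadjusted p of 0.05. Without XO1, the difference between XY and XO oocytes was -0.80 (SE 0.29) and passed the threshold (edgeR adjusted p = 0.0864). Its sign for XX against XO turned with the scaling, at 0.21 with TMM on the genes. On the deposited log2 values with batch effects removed, limma called it higher in XX than in XO (0.71) and in XX than in XY oocytes (0.43).

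Cdh2 encodes N-cadherin, best known from neurons and mesenchyme. Its transcript rested on few UMIs, from 6 in XX1 to 73 in XO3. Cdh2 was at 2.14, 2.45 and 4.57 normalized CPM in the XX pools, 3.62, 16.0 and 41.2 in the XO pools and 4.65, 3.26 and 5.43 in the XY pools. XO2 and XO3 stood above all other pools, while XO1 lay within the range of the XX and XY pools. Mean levels of the genotypes, in the order XX, XO, XY, were 3.05 ± 1.32, 20.3 ± 19.2 and 4.45 ± 1.10 normalized CPM (SD, n = 3 pools). Cdh2 was called lower in XX than in XO oocytes, with a log2 difference of -2.70 (SE 0.75, edgeR adjusted p = 0.203). It was also called lower in XY than in XO oocytes, at -2.17 (SE 0.73, edgeR adjusted p = 0.485). Relative to the median gene these differences were -2.24 and -1.87. Without XO3 the first stayed a call at -1.66 and the second was lost (-1.14), as it was without XY2 (-1.99). Both calls were lost when 2 surrogate variables entered the fit (-0.53 and -0.66) and with scaling to spike-in totals (-1.77 and -2.07). The second was also lost in limma's fit of the batch-regressed values (-0.34). Between XX and XY oocytes Cdh2 differed by -0.52 (95% interval -2.24 to 1.19).

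Cdh3 encodes P-cadherin and neighbours Cdh1 on chromosome 8. Cdh3 was at 5.34, 5.25 and 7.31 normalized CPM in the XX pools, 2.07, 15.5 and 26.5 in the XO pools and 1.39, 3.58 and 9.96 in the XY pools. XO2 and XO3 were again the highest of the 9 pools, and XO1 and XY1, with 4 and 3 UMIs, were the lowest. Cdh3 did not pass the threshold in any comparison, with -1.28 for XX against XO (95% interval -3.09 to 0.52), 0.22 for XX against XY (-1.62 to 2.06) and -1.51 for XY against XO (-3.33 to 0.32). XO and XY pools of the same number deviated together, least for number 2, and XX pools did so for numbers 1 and 3. When the number entered the fit as a block, the difference between XY and XO oocytes was -1.50 (SE 0.56) and became a call (edgeR adjusted p = 0.255). In the unblocked fit the call turned on single pools. Without XO1 Cdh3 was lower than in XO oocytes in XX (-1.80, edgeR adjusted p = 0.0369) and in XY oocytes (-2.00, edgeR adjusted p = 0.0397). The difference between XY and XO also passed without XY3 (-2.49). Over all single left-out pools it ranged from -2.49 to -0.77, and that for XX against XO from -1.80 to -0.55. In the fit without a filter on low counts Cdh3 was called against XO in XX (-1.29) and in XY oocytes (-1.51). The p-values of that fit follow a spread shared over genes. On the batch-regressed values, by contrast, limma called Cdh3 higher in XX than in XO (0.85) and in XX than in XY oocytes (0.68).

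Among Cdh1, Cdh2 and Cdh3, the share of each gene does not depend on the scaling. Cdh1 made up 87.3, 82.9 and 77.3% of the UMIs of Cdh1, Cdh2 and Cdh3 in the XX pools. The share was 83.6, 65.1 and 49.6% in the XO pools and 80.9, 84.1 and 74.8% in the XY pools. XO2 and XO3 had the lowest shares, and the 95% Wilson interval in XO3, 43.3 to 55.9%, lay below that of every XX and XY pool, counting error only. The means in the same order of genotypes were 82.5 ± 5.02, 66.1 ± 17.0 and 79.9 ± 4.74% (SD, n = 3). An exact permutation test of the F ratio over all assignments of pools to genotypes gave p = 0.179, where the smallest p it can give is 0.00357. Without XO1 the same exact test gave p = 0.0214, and XO oocytes differed from the mean of the XX and XY pools by -23.9 percentage points, against -15.1 with all pools. Without XO3 the difference was -6.86 percentage points (exact p = 0.546), and on the batch-regressed values it was -5.97 (exact p = 0.168).

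**Figure D2:**
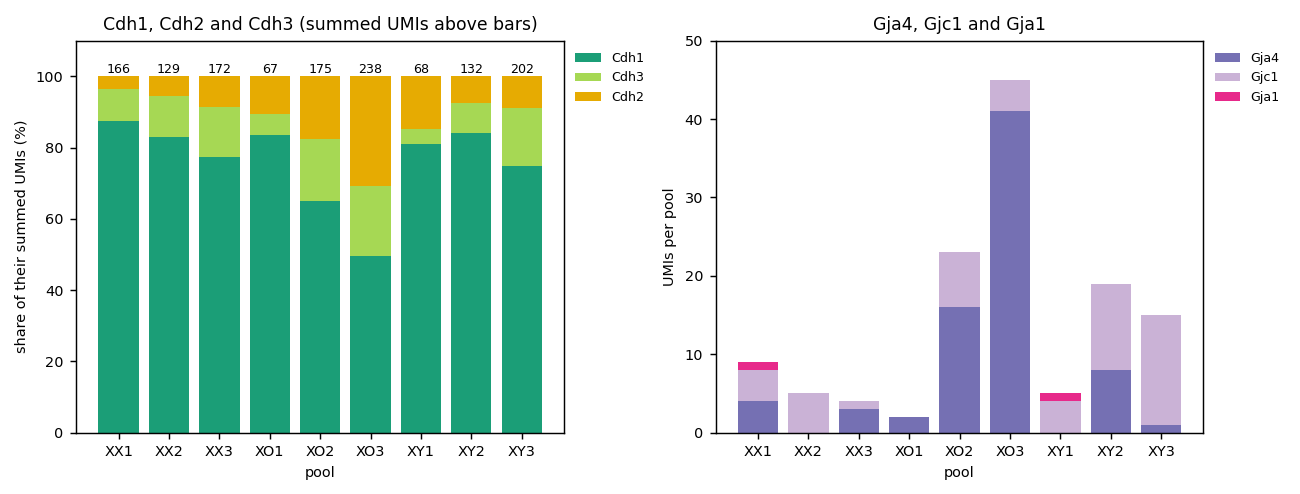
Left, the share (%) of Cdh1, Cdh3 and Cdh2 in their summed UMIs in each pool as stacked bars, with that sum above each bar, and right, UMIs of the connexins Gja4, Gjc1 and Gja1 in each pool. The Cdh1 share was 49.6% in XO3, and XO2 and XO3 held 16 and 41 of the 75 Gja4 UMIs.

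Ctnnb1 was the member that separated XO oocytes from both other genotypes in every pool. It was at 43.5, 35.7 and 32.6 normalized CPM in the XX pools, 77.1, 65.7 and 80.7 in the XO pools and 33.5, 31.3 and 37.4 in the XY pools. The lowest XO pool stood above the highest XX and the highest XY pool, XX and XY pools overlapped, and XO1 was as high as the other XO pools. These levels rested on 72 to 149 UMIs per pool. Means for XX, XO, and XY oocytes were 37.3 ± 5.59, 74.5 ± 7.87 and 34.0 ± 3.13 normalized CPM (SD, n = 3). Ctnnb1 was called lower in XX than in XO oocytes, with a log2 difference of -1.00 (SE 0.25, edgeR adjusted p = 0.203). The same held for XY against XO, at -1.13 (SE 0.25, edgeR adjusted p = 0.485). Relative to the median gene the differences were -0.54 and -0.83, and with TMM on the genes they were -0.57 and -0.85 and still passed. Between XX and XY oocytes Ctnnb1 differed by 0.13, with a 95% interval of -0.42 to 0.68.

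The Ctnnb1 calls held without any single pool, from -1.12 to -0.91 for XX against XO and from -1.21 to -1.07 for XY against XO. They were lost when pools were scaled to the total of spike-in UMIs, at -0.15 and -0.91. In that setting the median gene moved to 0.42 in XX against XO and to -0.11 in XY against XO oocytes. In the edgeR fit of all pools neither call passed the adjustment over all 10993 genes. By DESeq2 with the spike-in factors both did (adjusted p = 0.00739 and 0.00458), as they did by limma on the batch-regressed values (adjusted p = 0.0176 and 0.00155). The limma p-values do not count the batch effects removed beforehand and can be too small. XY against XO also passed by DESeq2 with its own factors (adjusted p = 0.0385) and by edgeR with 2 surrogate variables (adjusted p = 0.0197).

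Ctnna1, the link of the cadherin complex to actin, was at 9.97, 7.35 and 11.3 normalized CPM in the XX pools, 9.32, 16.0 and 11.3 in the XO pools and 10.7, 7.49 and 9.36 in the XY pools. XO2 was the highest pool, XO3 and XX3 were nearly equal, and the genotypes overlapped. No comparison passed, with -0.35 for XX against XO (95% interval -1.11 to 0.40), 0.06 for XX against XY (-0.69 to 0.82) and -0.42 for XY against XO (-1.18 to 0.35). The sign for XX against XO turned with TMM on the genes (0.08).

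Gja4 had the widest range of the 3 connexins in the set. It had 4, 0 and 3 UMIs in the XX pools, 2, 16 and 41 in the XO pools and 0, 8 and 1 in the XY pools. XO2 and XO3 held the highest counts, XO1 lay among the XX and XY pools, and XX2 and XY1 had no UMI. In normalized CPM, XO2 and XO3 stood at 8.27 and 23.1, against at most 2.60 elsewhere. Gja4 did not pass the filter. When the filter was dropped, edgeR gave -3.70 for XX against XO (SE 0.72, adjusted p = 3.97e-05), -3.33 for XY against XO (SE 0.70, adjusted p = 0.000334) and -0.37 for XX against XY oocytes (SE 0.83), which was not called. That fit held 28051 genes, of which 14.1, 9.75 and 4.33% were called in XX against XO, XY against XO and XX against XY. Its p-values follow a spread shared over genes and not that of Gja4 between pools, 2 to 41 UMIs within XO oocytes. When pools were left out one at a time, Gja4 passed the filter only in fits that kept both XO2 and XO3, the pools where it was high, and no call from those fits is counted here.

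Gjc1, which encodes connexin 45, had 4, 5 and 1 UMIs in the XX pools, 0, 7 and 4 in the XO pools and 4, 11 and 14 in the XY pools. The pools of the genotypes overlapped, and XY2 and XY3 had the highest counts. Without the filter its difference for XX against XY was -1.49 (SE 0.76), which missed the threshold. Gja1 had 1 UMI in XX1, 1 in XY1 and none elsewhere. All 3 genotypes were at or under the lowest detectable amount, set at 3 UMIs over the pools of a genotype (0.335, 0.532 and 0.351 normalized CPM in XX, XO, and XY oocytes), so that no fold was computed.

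Of the summed UMIs of Gja4, Gjc1 and Gja1, Gja4 made up 44.4, 0 and 75% in the XX pools, 100, 69.6 and 91.1% in the XO pools and 0, 42.1 and 6.67% in the XY pools. XO oocytes had the highest mean share, 86.9 ± 15.6%, against 39.8 ± 37.7% in XX and 16.3 ± 22.6% in XY oocytes (SD, n = 3), but XX3 lay above XO2. The shares rested on 2 to 45 UMIs per pool, and the 2 UMIs of XO1 allow a share from 34.2 to 100% (95% Wilson interval). Gja5 (connexin 40), which is not in the set, was higher at a mean of 19.9 normalized CPM, so that these are not shares of all connexin UMIs. The exact permutation test over the 3 genotypes gave p = 0.0714. With single pools left out, the exact p ranged from 0.025 (without XX2) to 0.154 (without XY1), with p = 0.0464 without XX3 and values above the threshold for the others. With the replicate block the exact p was 0.139.

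Ptk2, the focal adhesion kinase, was at 9.97, 6.65 and 9.14 normalized CPM in the XX pools, 8.28, 17.1 and 19.2 in the XO pools and 6.97, 8.79 and 14.2 in the XY pools. XO2 and XO3 were the highest pools, and XO1 lay among the XX pools. Ptk2 passed no threshold, with -0.78 for XX against XO (95% interval -1.72 to 0.15), -0.23 for XX against XY (-1.15 to 0.70) and -0.56 for XY against XO (-1.49 to 0.37). Without XO1 it was lower in XX (-1.07, edgeR adjusted p = 0.0571) and in XY oocytes (-0.84, edgeR adjusted p = 0.146) than in XO oocytes. Over all single left-out pools these differences ranged from -1.07 to -0.56 and from -0.90 to -0.33.

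Rdx differed from the cadherins in that, of the XO pools, XO1 was the highest. It was at 3434, 3319 and 2144 normalized CPM in the XX pools, 8831, 2374 and 2510.45 in the XO pools and 4850.42, 2532 and 2141 in the XY pools. XO1 was the highest pool by far and XY1 the next, and the remaining pools of all genotypes overlapped. As a share of gene UMIs, which needs no spike-ins, Rdx made up 0.387, 0.387 and 0.267% in the XX pools, 0.740, 0.201 and 0.176% in the XO pools and 0.490, 0.293 and 0.225% in the XY pools. XO1 and XY1 were again the highest pools, while XO2 and XO3 became the lowest. Rdx passed no threshold, with -0.62 for XX against XO (95% interval -2.00 to 0.75), -0.10 for XX against XY (-1.47 to 1.27) and -0.53 for XY against XO (-1.90 to 0.85). Without XO1 its sign turned, to 0.28 for XX against XO and 0.38 for XY against XO. On the batch-regressed values limma called it lower in XX (-0.42) and XY (-0.53) than in XO oocytes. With 2 surrogate variables edgeR also called Rdx lower in XY than in XO oocytes (-0.41).

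Within the XO genotype, 7 of the 10 members had their lowest level in XO1 (Cdh1, Cdh2, Cdh3, Ctnna1, Gja4, Gjc1 and Ptk2) and 1, Rdx, its highest. Among all genes tested, 52.9% were lowest and 37.4% highest in XO1. In XY oocytes, 5 members were lowest in XY1, against 39.2% of all genes tested. Zp3, an oocyte gene for the zona pellucida, had a like order of pools, with 12.4 normalized CPM in XO1 and 341 and 570 in XO2 and XO3, 21.8 in XY1 and 73.6 and 169 in XY2 and XY3, and 49.0 to 155 in the XX pools. Pecam1 stood at 14.5 in XO1 and at 109 and 132 in XO2 and XO3. The oocyte gene Gdf9 reached 869 and 2432 in XO2 and XO3, against 234 to 350 in the other 7 pools. Zp3, Pecam1 and Gdf9 were chosen after their values were seen. Of the 15 oocyte markers, 12 were lowest in XO1 and highest in XO3 among the XO pools, the order of Cdh2, Cdh3 and Gja4. The other 3, Oosp1, Dazl and Ddx4, were highest in XO1, as Rdx was, with 9137, 2494 and 2495 normalized CPM of Oosp1 in XO1, XO2 and XO3. The part of such differences between pools in the calls was not tested.

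Across the comparisons, the 3 genotypes differed in the following way for the 7 members tested. In XX against XO oocytes, 2 of 7 were called, both lower in XX (Ctnnb1 and Cdh2), where 18.1% of all genes tested were called, 16.7% lower and 1.4% higher. In XY against XO oocytes the same 2 of 7 were called, both lower in XY, where 9.93% of all genes were called, 8.24% lower and 1.69% higher. These comparisons share the XO pools. In XX against XY oocytes 0 of 7 were called at an unadjusted p of 0.05 by edgeR, where 5.8% of all genes were (4.39% lower and 1.41% higher in XX), and DESeq2 called 0 with either set of factors. After adjustment over all genes no member passed in any comparison in this edgeR fit, and 0, 4 and 9 of 10993 genes (0, 0.0364 and 0.0819%) did in XX against XO, XY against XO and XX against XY. Other fits gave smaller adjusted p-values. Cdh2 in XX against XO passed by DESeq2 with the spike-in factors (adjusted p = 0.0258). By edgeR without the filter it passed in XX against XO (adjusted p = 8.46e-05) and XY against XO (adjusted p = 0.00366). The p-values of that unfiltered fit follow a spread shared over genes and not that of Cdh2 between pools. The limma fit of the batch-regressed values passed 4 members in XX against XO (Cdh1, Cdh3, Ctnnb1 and Rdx) and 2 in XY against XO (Ctnnb1 and Rdx). In XX against XY that fit called Cdh1 and Cdh3, both higher in XX, at an unadjusted p of 0.05, and 0 members passed the adjustment. In the same fit 17 of 48 other adhesion genes passed in each comparison with XO oocytes, and the share over all genes was not computed. Its p-values do not count the batch effects removed beforehand and can be too small. The median log2 difference of the 7 members was -0.78 in XX against XO, -0.56 in XY against XO and 0.06 in XX against XY, beside -0.46, -0.30 and -0.19 over all genes.

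Without XO1, the same 7 members gave 4 calls in XX against XO (Cdh2, Cdh3, Ctnnb1 and Ptk2), 5 in XY against XO (Cdh1 in addition) and 0 in XX against XY by edgeR at an unadjusted p of 0.05. The share of all genes called rose as well, to 36.9, 32.1 and 11.1%. Of these, 3 members (Cdh2, Cdh3 and Ctnnb1) also passed the adjustment over all genes in both comparisons with XO oocytes, where 25.2% of all genes did in XX against XO and 14.2% in XY against XO. Without XO3, 1 member, Ctnnb1, was called in XY against XO, and the share over all genes was not computed. With the replicate block, 3 members were called in XY against XO (Cdh2, Cdh3 and Ctnnb1), where 16.6% of all genes were.

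**Figure D3:**
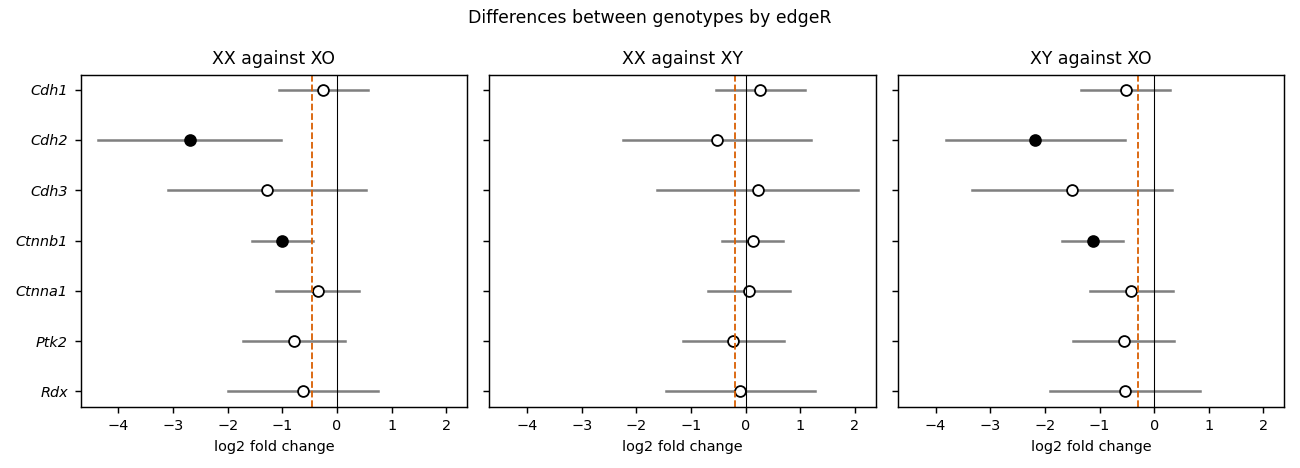
Log2 fold changes of the 7 tested members in the 3 comparisons by edgeR (points), with 95% intervals (bars). Filled points passed an unadjusted p of 0.05, the solid line is 0 and the dashed line the median of all genes tested. Filled points are Cdh2 and Ctnnb1 in both comparisons with XO oocytes, and in XX against XY every interval spans 0.

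**Figure D4:**
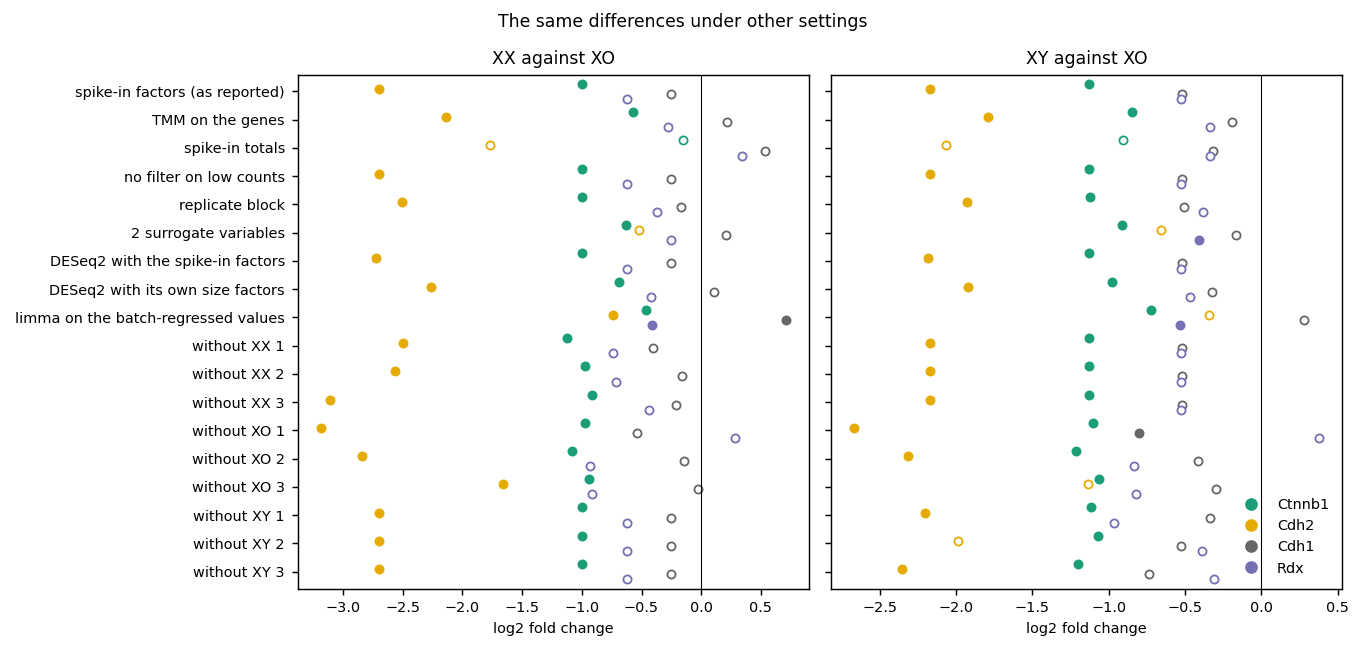
Log2 fold changes of Ctnnb1, Cdh2, Cdh1 and Rdx under each setting (rows), with filled points at an unadjusted p below 0.05. Ctnnb1 stays filled except with spike-in totals (-0.15 and -0.91), Cdh2 drops to -0.53 and -0.66 with 2 surrogate variables, and Rdx crosses 0 without XO1.

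The surroundings of the family were drawn from 6 lists of other adhesion genes, 108 genes of which 97 had a row and 48 were tested. At an unadjusted p of 0.05 by edgeR, in XX against XO oocytes 1 was higher and 13 were lower in XX, in XY against XO 1 was higher and 8 lower in XY, and in XX against XY 2 were lower in XX. The counts against XO include Ezr and, in XY against XO, Lef1, which would not have passed the filter without the XO pools. None passed the adjustment over all genes, with smallest adjusted p-values of 0.203, 0.485 and 0.713 by edgeR in the same order. Over all genes tested, 18.1, 9.93 and 5.8% were called in the same order. The numbers of adhesion genes called fell to 7, 5 and 1 with TMM on the genes, where the share over all genes was not computed. They rose to 21 of 51 genes (41.2%) in XX against XO and 17 of 51 (33.3%) in XY against XO without XO1, beside 36.9 and 32.1% of all genes, and without XO3 they were 8 and 0. In XX against XO, 9 were called without XX1 and 9 without XX2, and in XY against XO 4 were called without XY1 and 3 without XY2. In XX against XY they ranged from 1 to 7, with 4 without XX1, XO2 or XO3, 7 without XO1 and 1 without XY3.

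The partners of Rdx formed the list with the largest share of calls in both comparisons with XO oocytes in the edgeR fit of all pools. Of 7 tested genes of ERM proteins and microvilli, 5 were lower in XX than in XO oocytes (Ezr, Nf2, Slk, Myo10 and Vil1), with a median of -1.58, where 16.7% of all genes were lower. In XY against XO 4 were lower, with a median of -0.90, where 8.24% of all genes were. The share of calls and both counts and medians include Ezr, which would not have passed the filter on low counts without the XO pools. They were not recomputed without Ezr. Besides Ezr, the genes called were Nf2, Slk, Myo10 and Vil1 in XX against XO and Slk, Myo10 and Vil1 in XY against XO. With TMM on the genes 3 and 2 were called, and with spike-in totals 1 and 0. The median for XX against XO was -0.71 with spike-in totals, -0.39 with 2 surrogate variables and -0.25 by limma on the batch-regressed values. Without XO3 the numbers were 3 and 0, without XX1 and without XX2 3 in XX against XO, and without XY1 and XY2 1 and 2 in XY against XO. Ezr, which encodes ezrin, the sister protein of radixin, was named after its values were seen. It was at 1.78, 1.75 and 0.914 normalized CPM in the XX, 10.4, 4.14 and 9.60 in the XO and 2.32, 4.56 and 2.41 in the XY pools. Every XX pool lay below every XO pool, and XX against XO gave -2.41 (SE 0.53). Ezr passed the filter on low counts with 3 pools, 2 of them XO pools, and would not have passed without the genotype in which it was high. For XY against XO (-1.34) it was lost with TMM on the genes, spike-in totals and DESeq2's own factors and without XO1, XO3, XY1 or XY3 (-1.20 to -1.11). Moesin (Msn), the other sister, was at 2.11 normalized CPM or less in every pool and was not tested.

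Slk, a kinase of ERM proteins, was at 75.2, 57.8 and 73.7 normalized CPM in the XX, 111, 211 and 295 in the XO and 87.4, 84.0 and 112 in the XY pools. XX pools lay below all XO pools, and XY3 slightly above XO1. It was lower in XX (-1.58, SE 0.37) and XY (-1.12, SE 0.37) than in XO oocytes, and the second call was lost without XO3 (-0.77). Both were lost with spike-in totals (-0.71 and -0.96). Vil1 (villin, which bundles actin in microvilli) was at 9.84, 70.3 and 183 in the XO pools and at 8.37 to 26.6 in the other pools. It was lower by -2.29 in XX and -2.44 in XY oocytes, with the calls lost without XO3 (-1.16 and -1.31), without XX1 or XX2 for the first and without XY1 or XY2 for the second. The first was also lost with 2 surrogate variables (-0.19) and TMM on the genes (-1.70). Both were lost with spike-in totals (-1.32 and -2.13) and by limma on the batch-regressed values (0.08 and -0.27). Nf2 (merlin, a relative of the ERM proteins) was lower in XX than in XO oocytes by -2.06, although XO1 (5.18 normalized CPM) lay among the XX pools (4.55 to 8.53). The call was lost with spike-in totals (-1.18) and by limma on the batch-regressed values (-0.25). Daam1, the gene with the highest level in the list at 124 normalized CPM, was not called, and Myo10 (104) was, at -0.97 in XX and -0.90 in XY. Its calls were lost for XX against XO without XO2, XO3, XX1 or XX2 (-0.93 to -0.73) and for XY against XO without XO2, XO3, XX1, XY1 or XY2 (-0.90 to -0.67). Both were also lost with TMM on the genes (-0.48 and -0.59), spike-in totals (-0.05 and -0.64) and limma on the batch-regressed values (-0.04 and -0.15). The first was lost as well with 2 surrogate variables (-0.39) and DESeq2's own factors (-0.60).

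Of the 10 tested catenins and adherens partners, Ctnnd1, Ctnnd2 and Nectin3 were lower in XX than in XO oocytes, and 1, Nectin3, was lower in XY than in XO oocytes. Ctnnd1 encodes p120-catenin, which steadies cadherins at the membrane. It was at 32.8, 34.0 and 30.5 normalized CPM in the XX, 49.7, 56.4 and 61.5 in the XO and 55.3, 48.5 and 47.7 in the XY pools. XX pools lay below all others, and XO and XY pools overlapped. Ctnnd1 (-0.64, SE 0.23) and Ctnnd2 (-0.74, SE 0.31) were the 2 genes of all lists that were lower in XX than in XY oocytes. XX against XO gave -0.79 for Ctnnd1, a call that was lost with TMM on the genes (-0.34) and DESeq2's own factors (-0.45). It was also lost with spike-in totals (0.05), by limma on the batch-regressed values (-0.19) and without the filter. For Ctnnd2 the same comparison gave -1.06. That call was lost with 2 surrogate variables (-0.61), spike-in totals (-0.28) and limma on the batch-regressed values (-0.25). The Ctnnd1 call for XX against XY was lost with TMM on the genes (-0.49) and without XX1, XX2, XX3 or XY1 (-0.67 to -0.57), and the Ctnnd2 call for XX against XY without XX2, XX3, XY1 or XY3 (-0.73 to -0.67). Both calls for XX against XY were also lost with spike-in totals (0.09 and -0.08), DESeq2's own factors (-0.48 and -0.58) and without the filter. Pard3 (148 normalized CPM) and Ctnna3 (101), the most abundant of the list, were not called, and Nectin3 (81.1) lost its calls with TMM on the genes and when single pools were left out. The Nectin3 calls were also lost with spike-in totals, 2 surrogate variables and limma on the batch-regressed values.

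**Figure D5:**
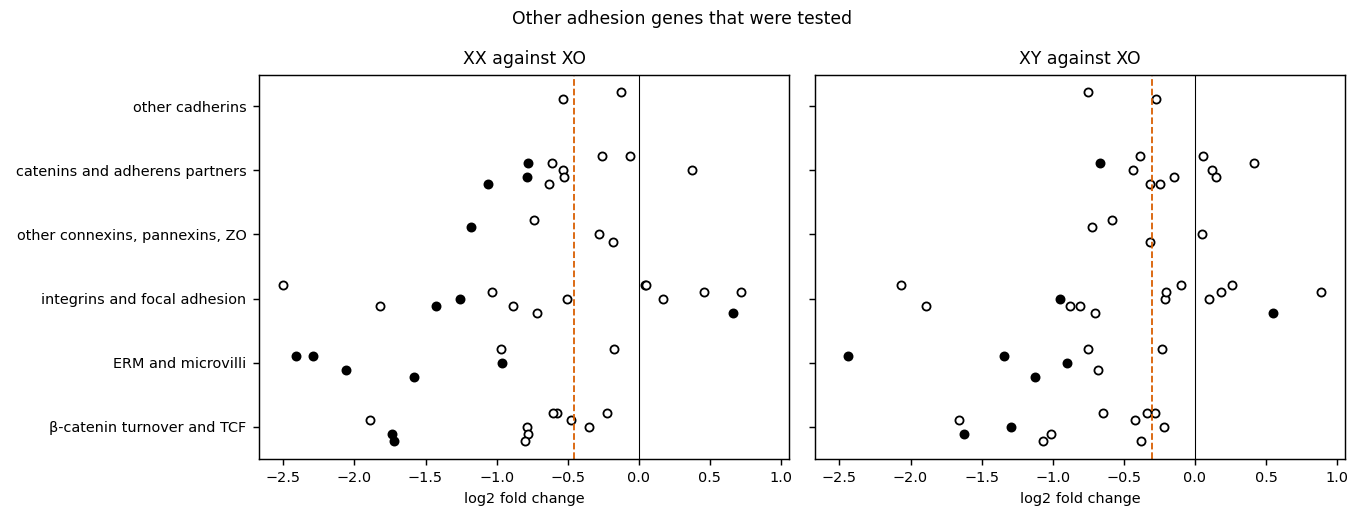
Log2 fold changes of the 48 other adhesion genes tested, by list, for XX against XO and XY against XO oocytes by edgeR. Filled points passed an unadjusted p of 0.05, the solid line is 0 and the dashed line the median of all genes tested. ERM and microvilli genes lie mostly left of the dashed line, with 5 of 7 filled in XX against XO. These include Ezr, which would not have passed the filter on low counts without the XO pools. On the right 1 integrin gene, Itgb1, is filled.

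Among 14 tested genes of integrins and focal adhesions, the partners of Ptk2, Itgb1 was the 1 gene higher in XX (0.66, SE 0.23) and in XY oocytes (0.55, SE 0.23) than in XO oocytes. It encodes the β1 integrin chain and was named after its values were seen. It was at 46.7, 43.1 and 45.4 normalized CPM in the XX, 25.9, 29.5 and 29.9 in the XO and 38.6, 42.3 and 44.1 in the XY pools, with the XO pools below all others. For XY against XO the call was lost whenever 1 of the 9 pools was left out (0.49 to 0.60), and for XX against XO it was lost only in the fit without a filter on low counts, among the settings tried. Itga6 was lower in XX (-1.26) and XY oocytes (-0.95). The first call was lost with 2 surrogate variables (-0.0043) and spike-in totals (-0.47). The second was lost without XO3, XY1 or XY2 (-0.98 to -0.56). It was also lost with TMM on the genes (-0.63), 2 surrogate variables (-0.18), spike-in totals (-0.74) and limma on the batch-regressed values (-0.29). Yes1 (776 normalized CPM) was lower in XX oocytes (-1.43), a call lost without XO2, XO3, XX1, XX2, XX3 or XY2 (-1.67 to -1.03). It was also lost with TMM on the genes (-0.91), spike-in totals (-0.51), DESeq2's own factors (-1.02) and limma on the batch-regressed values (0.17). Fermt2 (96.3) was not called. Cd9, a tetraspanin of the egg membrane, ranged from 17.6 in XO1 to 1377 in XO3 and was not called (-2.50 and -2.06).

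Of 11 tested genes that destroy β-catenin or act with it on DNA, 2 were called for XX against XO (Btrc and Bcl9) and 2 for XY against XO (Axin2 and Lef1), all with the higher level in XO oocytes. Btrc, whose product marks β-catenin for destruction, differed by -1.72, and the call was lost without XO2, XO3, XX1, XX2 or XY2 (-1.72 to -1.16). It was also lost with TMM on the genes (-1.19), spike-in totals (-0.72) and DESeq2's own factors (-1.30). The same held with 2 surrogate variables (-0.47) and by limma on the batch-regressed values (0.16). Bcl9, Axin2 and Lef1, named after their values were seen, differed by -1.74, -1.29 and -1.62, and each lost its call without XO3 (-0.89, -1.00 and -1.28), among other pools. Each was also lost with spike-in totals (-0.82, -1.22 and -1.39), and Bcl9 and Axin2 with TMM on the genes (-1.21 and -0.95). Lef1, like Ezr, passed the filter on low counts with 3 pools, 2 of them XO pools. Csnk1a1 (133 normalized CPM), Apc (52.2) and Tcf7 (16.8), the most abundant, were not called.

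Of the other connexins and junction genes, 4 were tested, and Panx1 was called, lower in XX than in XO oocytes (-1.18), a call lost with TMM on the genes (-0.72). It was also lost with 2 surrogate variables (-0.70), spike-in totals (-0.17) and limma on the batch-regressed values (-0.37). Tjp1, which encodes the scaffold ZO-1, was the most abundant at 69.8 normalized CPM. Gja5 stood at 19.9, above all 3 connexins of the family, and ranged from 2.59 in XO1 to 40.6 in XO3. Of 18 other cadherin genes with a row, 2 were tested and 0 called by edgeR at an unadjusted p of 0.05. Cdh19 was the most abundant (32.7), with its highest level in XO1 (67.8), and Cdh9 and Cdh8 stood at 3.04 and 2.71 normalized CPM.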

How the data were processed

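RNA of 9 pools was analysed, 3 per genotype as labelled. The members and gene lists were chosen with earlier results of these data known. The authors aligned paired-end reads to GRCm38 with Hisat2 in stranded mode and deposited 5′ UMI counts of 28052 genes, 79 ERCC spike-ins and 1 other entry. The deposited normalized CPM, a signal of 28051 genes, equals the counts times 1 constant per pool, the inverse of gene total times ERCC TMM factor (largest relative difference 5.0e-15). The deposited log2 values have batch effects regressed out by the authors and served as an alternative. Tests on them do not count that step, so that their p-values can be too small. The column labelled XO without a number was taken as XO1 from its label.

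Counts were tested in edgeR 4.0.16 by its two-sided quasi-likelihood test, with spike-in factors and all 9 pools in 1 fit after filterByExpr by genotype, called at an unadjusted p of 0.05 as in the study, with Benjamini-Hochberg values over 10993 genes. The fit was tested on simulated counts. Shares were compared by exact permutation, with Wilson intervals, which cover counting error only. Alternatives used DESeq2 1.42.0, limma 3.58.1 and sva 3.50.0 (R 4.3.3). Deviations of same-numbered XO and XY pools correlated at 0.830, 0.278 and 0.773 over genes. The reported fit held no block, so its p-values do not use any pairing by number. An alternative fit, the replicate block, entered the number of all 9 pools. Neither labels nor methods say what a number marks. No per-sample column was left unmapped. Besides members, the 3 most abundant genes of each list and, per comparison, the 3 largest called differences at a mean of at least 10 normalized CPM were named.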

Additional observations from a re-analysis of the deposited data

How the results depend on the processing

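The counts of members are given for the 7 tested with all pools. In XX against XO 2 became 0 with spike-in totals, 3 without the filter and 1 with 2 surrogate variables. They became 5 with limma on the batch-regressed values and 2 to 4 without single pools. In XX against XY 0 became 2 with limma on the batch-regressed values (Cdh1 and Cdh3) and stayed 0 without single pools. In XY against XO 2 became 0 with spike-in totals, 3 without the filter and 1 to 5 without single pools. With 2 surrogate variables 2 were called there, Ctnnb1 and Rdx in place of Ctnnb1 and Cdh2. Gja4 and Gjc1 passed the filter in some fits without single pools, through pools where they were high, and are not counted. Of the other adhesion genes, 14 called in XX against XO became 7 with TMM on the genes, 3 with spike-in totals and 8 to 21 without single pools. In XX against XY 2 became 1 with TMM, 1 with spike-in totals, 4 without the filter, 6 with the replicate block, 13 with surrogate variables, 1 with DESeq2's own factors, 13 with limma on the batch-regressed values and 1 to 7 without single pools. In XY against XO 9 became 5 with TMM, 0 with spike-in totals, 19 without the filter, 21 with limma on the batch-regressed values and 0 to 17 without single pools. Without the filter more genes were tested, 10 members and 97 others, and the p-values follow a spread shared over genes. The share of all genes called there was 14.1% in XX against XO, 4.33% in XX against XY and 9.75% in XY against XO. Without XO1 it was 36.9, 11.1 and 32.1% in the same order, and with the replicate block 16.6% in XY against XO. For the other alternative settings that share was not computed, so their counts are not a result about these genes. Without single pools the difference of XO from the other oocytes ranged from -23.9 to -6.86 percentage points for the share of Cdh1 in the UMIs of Cdh1, Cdh2 and Cdh3, and from 52.3 to 68.2 for that of Gja4 in those of Gja4, Gjc1 and Gja1.

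Differences whose sign turned were, apart from those named, not called in either setting. With TMM on the genes they were Cdh1 (0.21) and Ctnna1 (0.0814) in XX against XO and Rdx (0.0587) in XX against XY. With spike-in totals they were Cdh1 (0.53), Ctnna1 (0.55), Ptk2 (0.0485) and Rdx (0.34) in XX against XO and Cdh2 (0.30), Ptk2 (0.36) and Rdx (0.68) in XX against XY. With surrogate variables they were Cdh1 (0.21) and Cdh3 (0.37) in XX against XO and Cdh2 (0.13) and Rdx (0.16) in XX against XY. With DESeq2's own factors they were Cdh1 (0.10) in XX against XO and Rdx (0.0494) in XX against XY. On the batch-regressed values they were Cdh1 (0.71), Cdh3 (0.85), Ctnna1 (0.33) and Ptk2 (0.22) in XX against XO, Cdh1 (0.28), Cdh3 (0.17), Ctnna1 (0.15) and Ptk2 (0.26) in XY against XO and Rdx (0.12) in XX against XY. Of these, Cdh1 and Cdh3 in XX against XO were called on the batch-regressed values. The median gene moved to 0.28 and 0.32 there. Without single pools, Rdx turned without XO1 and ranged from -0.94 to 0.28 in XX against XO and from -0.97 to 0.38 in XY against XO. In XX against XY, Rdx turned without XX3 or XY1 (range -0.32 to 0.34), Cdh3 without XY1 (-0.18 to 1.20), Ctnna1 without XX3 or XY2 (-0.0786 to 0.22) and Ptk2 without XY3 (-0.42 to 0.12). The cause of these changes was not tested.

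With the replicate block, the Cdh3 difference in XY against XO (-1.50) became a call, Rdx in XX against XY was 0.0132 and no other member changed its call. The deviations of XX pools correlated over genes with those of same-numbered XO pools at 0.468, -0.447 and 0.679. With XY pools they correlated at 0.435, -0.0595 and 0.726. These values were positive for numbers 1 and 3 and negative for number 2. Surrogate variables and the batch-regressed values both ended the Cdh2 call in XY against XO (-0.66 and -0.34). Depth limits Gja1, Gja4 and Gjc1, with 2 to 75 UMIs over all pools.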
